A study of Homo sapiens with 6 samples.

Results

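LINC genes, whose symbols consist of LINC and a number, are long intergenic non-coding RNA genes, and 132 of them were expressed in the A549 libraries described here. They were taken from a table of RefSeq transcripts by their accession, summed per gene and kept when their mean over the 6 libraries was at least 1 CPM (counts scaled to the total of the library). The table lists 1771 LINC genes among 28452 genes in all, and 628 of these LINC genes had a count in at least 1 library. The members were therefore chosen by their own level, so the level itself is a description and was not tested. Of the 132, RefSeq names 131 as LINC genes, each with the biotype lncRNA. The other is LINC00672, a symbol of GENCODE release 29, which RefSeq now calls LASP1NB and lists as protein coding. A compound symbol, LINC01297-DUXAP10-NBEAP6, also begins with LINC and a number and was kept.

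A549 is an established human lung adenocarcinoma cell line. The cells had been infected with lentiviruses for a control or for shCBX8, a short hairpin RNA directed at the CBX8 messenger RNA, to give stable lines. Sample titles put 2 libraries in each of 3 groups, control, shCBX8-1 and shCBX8-2. Whether a line is a pool or a clone, what the first number in the shCBX8 titles stands for, and whether the libraries of a group come from separate cultures is not stated in the labels. The groups shCBX8-1 and shCBX8-2 are called hairpins for short, although the labels do not say that their hairpin sequences differ. The p-values therefore measure only how far these libraries differ, a spread that may be technical.

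Long non-coding RNAs are transcribed and often spliced like messenger RNAs but hold no long reading frame with a known product. A LINC number is a placeholder symbol, given to a gene between protein-coding genes whose function had not been settled when it was named. Some of these RNAs act at their own locus on neighbouring genes, others act elsewhere in the nucleus or in the cytoplasm. CBX8 is a chromobox subunit of a Polycomb repressive complex, which binds methylated histone tails and keeps developmental genes silent.

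Library totals ran from 64197784 to 67169537 estimated counts. CBX8 itself stood at 24.6 and 26.2 CPM in control, at 7.79 and 7.70 CPM under shCBX8-1, and at 17.7 and 13.8 CPM under shCBX8-2. These levels and those that follow are CPM with library sizes corrected by TMM (trimmed mean of M-values). The 10 epithelial and A549 markers checked summed to 32240 to 39760 CPM per library. KRT8 (11730 to 17130 CPM) and KRT18 (8120 to 11810 CPM) were the highest of them. Others were scarce, with KRT19 at 0.359 to 4.11 CPM and EPCAM at 3.05 to 8.39 CPM. The leukocyte marker CD14 and the endothelial marker CDH5 each reached 4.65 CPM. Markers of other cell types summed to at most 5.72 CPM, and 3 of 4 alveolar and club cell markers, among them the surfactant gene SFTPC, were under 1 CPM in every library. Because whole cultures were sequenced, fewer cells with a transcript and less transcript per cell cannot be told apart. In a model fitted to all 17115 genes tested, 29 tests of LINC members passed at an adjusted p under 0.05. All 29 ended when control 1, control 2, shCBX8-1 replicate 1 or shCBX8-1 replicate 2 was left out, and all kept their direction. Over all genes, leaving out these libraries took the calls in knockdown against control from 1162 to 1, 1, 29 and 16. With all libraries the libraries of a group differed per member by a median of 0.187 log2 units in control, 0.188 in shCBX8-1 and 0.213 in shCBX8-2.

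For 5 of the members that passed in at least 1 comparison, chosen after their values were seen from those with an entry in the promoter table, the promoter window is shown here because promoters rich in CG dinucleotides are known as places where Polycomb complexes gather. Each window holds 250 bases before and 50 after the start of the gene, read 5′ to 3′ on the strand of the gene, from RefSeq on GRCh38.p14, with every CG dinucleotide in capitals. The windows are chr21:45287802-45288101 on the + strand for LINC00205, chr22:31346509-31346808 on the + strand for LINC01521, chr7:66903870-66904169 on the + strand for LINC02604, chr7:39733318-39733617 on the + strand for LINC00265, and chr6:71420696-71420995 on the - strand for LINC00472.
LINC00205: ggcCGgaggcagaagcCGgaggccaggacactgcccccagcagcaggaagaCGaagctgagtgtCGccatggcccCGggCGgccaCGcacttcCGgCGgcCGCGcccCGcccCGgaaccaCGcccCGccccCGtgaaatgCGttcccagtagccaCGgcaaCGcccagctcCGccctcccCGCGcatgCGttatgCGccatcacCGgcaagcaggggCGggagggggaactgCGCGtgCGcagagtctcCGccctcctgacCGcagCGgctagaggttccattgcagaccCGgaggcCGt
LINC01521: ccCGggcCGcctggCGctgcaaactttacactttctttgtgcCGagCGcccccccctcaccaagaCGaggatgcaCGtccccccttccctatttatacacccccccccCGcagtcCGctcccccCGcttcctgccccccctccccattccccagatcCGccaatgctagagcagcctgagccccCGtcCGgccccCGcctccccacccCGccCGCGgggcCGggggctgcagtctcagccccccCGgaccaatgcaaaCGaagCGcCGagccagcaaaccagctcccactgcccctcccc
LINC02604: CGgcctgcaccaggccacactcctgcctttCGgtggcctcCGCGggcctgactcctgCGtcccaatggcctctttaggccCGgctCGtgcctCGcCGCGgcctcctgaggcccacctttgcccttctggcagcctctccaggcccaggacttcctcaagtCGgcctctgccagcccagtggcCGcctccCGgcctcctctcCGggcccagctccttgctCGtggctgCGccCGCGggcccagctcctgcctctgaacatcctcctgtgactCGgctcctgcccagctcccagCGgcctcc
LINC00265: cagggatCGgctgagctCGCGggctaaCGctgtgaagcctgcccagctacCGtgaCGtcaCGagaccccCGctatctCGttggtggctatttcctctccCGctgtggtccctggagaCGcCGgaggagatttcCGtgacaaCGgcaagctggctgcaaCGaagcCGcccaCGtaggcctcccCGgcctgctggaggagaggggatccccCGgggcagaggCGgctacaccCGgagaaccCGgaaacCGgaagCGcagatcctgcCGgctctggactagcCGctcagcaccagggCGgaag
LINC00472: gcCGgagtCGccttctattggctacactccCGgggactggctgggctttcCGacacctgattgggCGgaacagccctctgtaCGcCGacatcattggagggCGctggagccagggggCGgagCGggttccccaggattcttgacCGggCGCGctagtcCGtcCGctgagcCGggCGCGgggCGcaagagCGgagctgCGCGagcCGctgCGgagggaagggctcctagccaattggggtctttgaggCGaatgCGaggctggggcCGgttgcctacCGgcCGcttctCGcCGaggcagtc

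The LINC00205 window held 34 CG dinucleotides, the LINC00472 window 31, the LINC00265 window 27, the LINC01521 window 22 and the LINC02604 window 20. Among called members whose windows are not shown, LINC01123 held 25, LINC00623 22 and LINC01460 21. LINC01270 and LINC02593 held 11 each, LINC00513 6, LINC01504 4, LINC02615 3 and LINC01186 3. The other called members, LINC02582, LINC00707, LINC02688, LINC00174 and LINC00319, had no entry in the promoter table. Among them are all the members called as higher than control, so no window of a member that rose was counted. The 5 shown therefore do not stand for all called members. Over 35116 RefSeq promoters of the same length (chromosome 8 left out) the median was 14, and 15.6% had at least as many as LINC00205, 20.7% as LINC00472, 28.2% as LINC00265, 37.7% as LINC01521 and 41.2% as LINC02604. The 5 windows shown were searched on both strands for 4 motifs. The GC box was searched as GGGCGG, which 45.0% of these promoters hold. The CCAAT box, by the letters of its name, is held by 34.6%. The core of ETS factor sites was searched as CCGGAAG, held by 10.3%. The TATA box was searched as TATAAA, held by 11.5%. LINC00205 held 6 GC boxes and 1 ETS core. LINC00472 held 5 CCAAT boxes and 2 GC boxes. LINC01521 held 2 CCAAT boxes, 1 GC box and 1 TATA box. LINC00265 held 2 GC boxes and 1 ETS core, and LINC02604 held 1 CCAAT box. These matches describe the letters of the window and show no binding.

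Most members were scarce. Their median level was 3.26 CPM, 28 reached 10 CPM or more and 42 lay under 2 CPM, levels that are not corrected for transcript length. All 132 had counts in all 6 libraries, the lowest being 11 counts. Together they took 0.130 and 0.134% of the counts in control, 0.126 and 0.125% under shCBX8-1, and 0.117 and 0.121% under shCBX8-2. A group mean of at least 1 CPM was reached by 139 LINC genes in control, 130 in shCBX8-1 and 121 in shCBX8-2, counting non-members too.

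**Figure D1:**
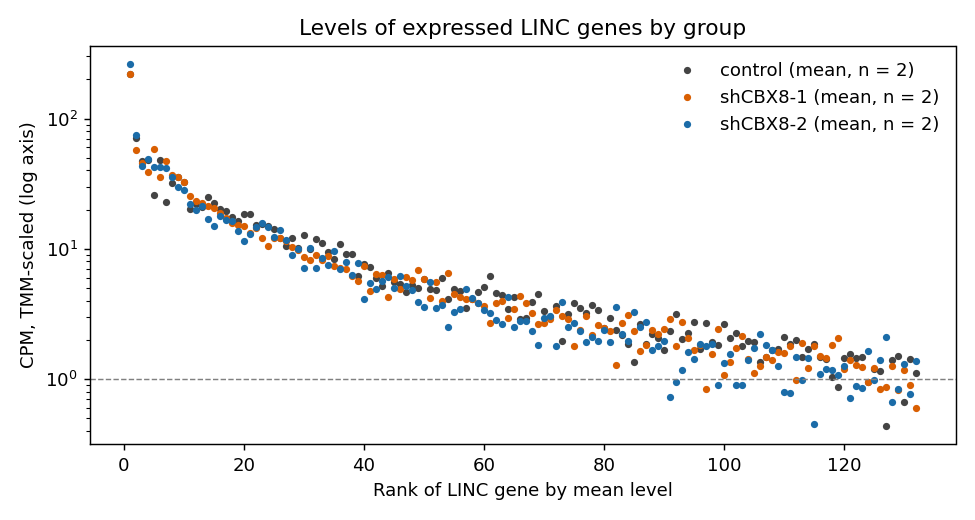
Mean TMM-scaled CPM (log axis) of the 132 LINC genes in each group (n = 2), against their rank by mean level, with a dashed line at 1 CPM. Levels fall from LINC02067, at 224 and 215 CPM in control, to a long tail in which 42 members lie under 2 CPM, and the groups lie close together at most ranks.

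Of the 8 most abundant members, LINC02582 and LINC00707 passed a test and are described below. LINC02067 (chromosome 3, 161426427 to 161448242) led, at 224 and 215 CPM in control, at 213 and 228 under shCBX8-1, and at 265 and 260 under shCBX8-2. Its shCBX8-2 libraries lay above the other 4, and the log2 fold change there was 0.26 ± 0.07 (SE, edgeR adjusted p = 0.0579). GENCODE places 119 of its 2845 exonic bases within RPL23AP42, a processed pseudogene of the ribosomal protein gene RPL23A, so its reads may be shared with RPL23A and its level is uncertain. RPL23A itself stood at 403 and 407 CPM in control, at 386 and 443 under shCBX8-1, and at 496 and 476 under shCBX8-2; the part of such reads in LINC02067 was not tested.

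LINC00674 ran from 52.4 to 75.5 CPM, LINC00673, an RNA studied in pancreatic and lung tumours, from 42.4 to 51.4 CPM, and LINC01000 from 38.6 to 52.1 CPM. LINC00473, a CREB-responsive RNA known from lung tumours that lack the kinase LKB1, stood at 43.4 and 52.8 CPM in control, at 34.9 and 35.7 under shCBX8-1, and at 42.4 and 42.7 under shCBX8-2. All 4 knockdown libraries lay below both controls, yet the log2 difference in knockdown against control of -0.31 ± 0.10 (SE) did not pass (edgeR adjusted p = 0.114). LINC00473 overlaps the span of PDE10A on the same strand and shares 689 of 1822 exonic bases with it, so reads of both genes are hard to divide. LINC01963 ran from 30.4 to 40.5 CPM. In knockdown against control LINC02067, LINC00674, LINC00673, LINC01000 and LINC01963 had edgeR adjusted p of 0.249 to 0.569. The 8 held 43.8% of the summed level of all members.

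Knockdown against control asked which of these RNAs differed when both hairpins were averaged. Of 132 members, 2 rose, 4 fell and 126 did not pass, or 4.55% against a background of 6.79% of all genes tested. By direction, 3.31% of all genes rose and 3.48% fell. Over all 323 LINC genes that had enough counts for a test, members or not, 6 passed as well. The share of members called was below that background, and the difference was not tested.

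LINC02582 (chromosome 18, 73324941 to 73349889), an RNA described in breast tumour cells in connection with radiation response, rose under both hairpins. It stood at 24.5 and 26.9 CPM in control, at 59.6 and 56.7 under shCBX8-1, and at 39.5 and 45.6 under shCBX8-2. The 3 groups did not overlap, with shCBX8-1 highest. Its log2 fold change was 0.95 ± 0.10 (SE) in knockdown, 1.18 ± 0.11 under shCBX8-1 and 0.73 ± 0.11 under shCBX8-2, with edgeR adjusted p of 0.00755, 0.00816 and 0.00957. No protein-coding gene of RefSeq lies within 50 kb. The nearest other member, LINC02864, is 60.4 kb away and stood at 19.95 to 25.2 CPM in all libraries, with a log2 difference of 0.06 ± 0.12 (adjusted p = 0.835).

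LINC00707 (chromosome 10, 6779598 to 6842906), studied in lung adenocarcinoma for its link to proliferation and migration, also rose under both hairpins. It stood at 26.3 and 19.1 CPM in control, at 48.6 and 46.1 under shCBX8-1, and at 38.9 and 45.4 under shCBX8-2. Both knockdown groups lay above control, and they lay close to each other. The log2 fold change was 0.97 ± 0.15 (SE) in knockdown, 1.06 ± 0.17 under shCBX8-1 and 0.89 ± 0.17 under shCBX8-2, with edgeR adjusted p of 0.0172, 0.0319 and 0.019. It too has no protein-coding gene within 50 kb. The shCBX8-1 call ended with replicate number as a block (adjusted p = 0.0589) and without a filter on low counts (0.0556). LINC02582 and LINC00707 were the members that passed against control in both hairpins.

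The 4 members that fell in knockdown lay at moderate or low levels. LINC02604 (chromosome 7, 66904120 to 66906297) went from 10.7 and 11.2 CPM in control to 6.78 and 7.35 under shCBX8-1, and 7.44 and 6.52 under shCBX8-2. Its log2 fold change was -0.64 ± 0.12 in knockdown (SE, edgeR adjusted p = 0.0305) and nearly the same in each hairpin, -0.63 ± 0.15 (adjusted p = 0.082) and -0.65 ± 0.15 (adjusted p = 0.0326). The shCBX8-2 call ended with replicate number as a block (adjusted p = 0.0583). LINC00174 (chromosome 7, 66376044 to 66400408), studied in colorectal tumours and glioma, went from 8.70 and 9.70 CPM to 6.13 and 6.29 under shCBX8-1, and 6.45 and 6.17 under shCBX8-2. Its log2 fold change of -0.56 ± 0.12 in knockdown (SE, edgeR adjusted p = 0.0472) had the highest adjusted p of the 6 calls. Neither hairpin passed alone, at -0.57 ± 0.15 in shCBX8-1 (adjusted p = 0.11) and -0.54 ± 0.15 in shCBX8-2 (adjusted p = 0.0562). The knockdown call ended with DESeq2 size factors (adjusted p = 0.0504), without a filter on low counts (0.0585) and without the repeated accessions of other genes (0.0502). LINC00174 shares 560 of 11354 exonic bases with the pseudogene AC008267.2. LINC00174 and LINC02604 lie in the same stretch of chromosome 7, with the member LINC03011 between them, 93.2 kb from the first and 408.6 kb from the second. LINC03011 stood at 7.99 and 6.44 CPM in control, at 6.01 and 3.44 under shCBX8-1, and at 5.69 and 5.31 under shCBX8-2 and did not pass (adjusted p = 0.257).

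LINC01521 (chromosome 22, 31346759 to 31351155) went from 17.3 and 19.6 CPM to 14.9 and 14.9 under shCBX8-1, and 11.0 and 11.8 under shCBX8-2. The groups did not overlap, and shCBX8-2 lay lowest. The log2 fold change was -0.50 ± 0.11 in knockdown (SE, edgeR adjusted p = 0.0431) and -0.69 ± 0.13 in shCBX8-2 (adjusted p = 0.018), against -0.31 ± 0.13 in shCBX8-1 (adjusted p = 0.278). The knockdown call ended without a filter on low counts (adjusted p = 0.0601). LINC00319 (chromosome 21, 43446601 to 43453902), which overlaps the span of HSF2BP on the opposite strand, went from 2.46 and 2.94 CPM to 0.705 and 0.970 under shCBX8-1, and 1.86 and 1.70 under shCBX8-2. It fell by 1.14 ± 0.25 in knockdown (SE, edgeR adjusted p = 0.0431) and by 1.69 ± 0.30 in shCBX8-1 (adjusted p = 0.0443). In shCBX8-2 it was at -0.60 ± 0.29 and did not pass (adjusted p = 0.227). The table lists a repeated accession for it, and without such entries neither call held (adjusted p = 0.0755 and 0.0683). The shCBX8-1 call also ended with replicate number as a block (0.0803) and without a filter on low counts (0.058). All 4 of these calls in knockdown ended with replicate number as a block, with adjusted p of 0.0608 for LINC02604, 0.0822 for LINC00174, 0.0664 for LINC01521 and 0.0714 for LINC00319, while those of LINC02582 and LINC00707 did not. With the 4 knockdown libraries fitted as 1 group, 0 of the 132 members passed by edgeR and 25 had an unadjusted p under 0.05, while 0.158% of all genes passed. With 3 groups DESeq2 called 16 members and 10.9% of all genes.

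**Figure D2:**
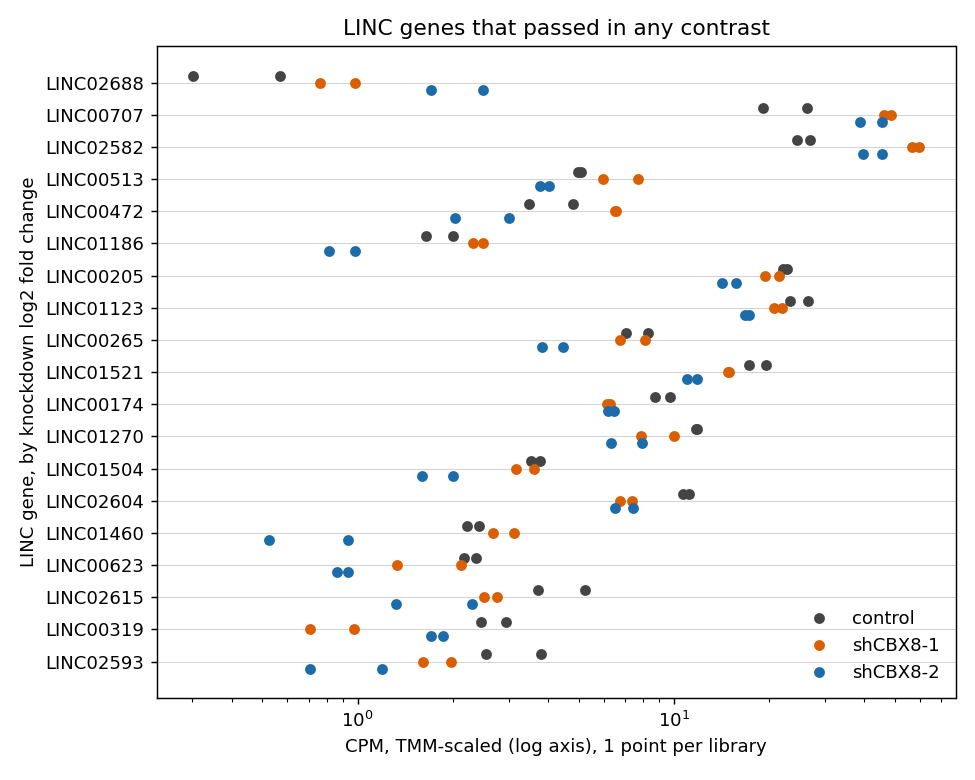
TMM-scaled CPM (log axis) in each library, 1 point per library and 2 per group, for the 19 LINC genes that passed in any comparison, ordered by their log2 fold change in knockdown. LINC02582 and LINC00707 lie to the right of control in all 4 knockdown libraries, and LINC02604, LINC00174, LINC01521 and LINC00319 to the left.

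Beyond single calls, members tended to lie below control. The median log2 fold change in knockdown was -0.21 for members and -0.04 for all genes tested, and 98 of 132 members (74.2%) were below 0 against 55.3% of all genes. All 4 knockdown libraries lay below both controls for 41 members (31.1%, background 15.5% of all genes tested) and above both for 10 (7.58%, background 13.2%). For the remaining 81 the levels overlapped. With DESeq2 size factors the medians were -0.19 for members and -0.02 for all genes. In each hairpin alone the member median was -0.13 in shCBX8-1 and -0.24 in shCBX8-2, against -0.01 and -0.04 for all genes, the control libraries being shared. Most of these differences were small: 93 of 132 members lay within 0.5 log2 units of control in knockdown, and 8 differed 2-fold or more.

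**Figure D3:**
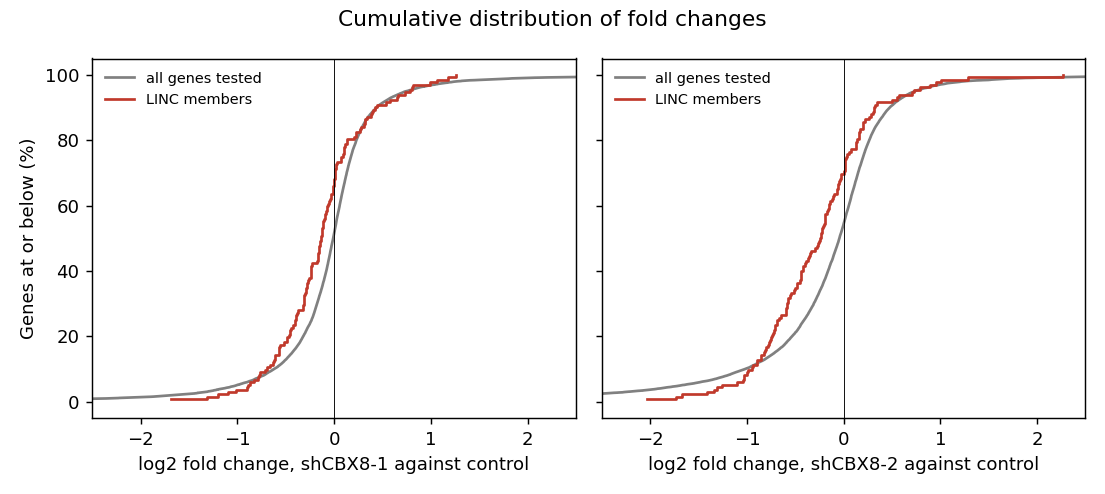
Cumulative share of genes (%) at or below each log2 fold change, for all 17115 genes tested (grey) and the 132 LINC members (red), in shCBX8-1 and shCBX8-2 against the same controls. The red curves lie to the left of the grey ones over most of their course, with medians of -0.13 and -0.24 against -0.01 and -0.04.

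In shCBX8-1 against control, 2 members rose and 1 fell, or 2.27% against a background of 2.47% (1.34% of all genes rose and 1.13% fell), and all 3, LINC02582, LINC00707 and LINC00319, have been described. In shCBX8-2 against control, 3 rose and 11 fell, or 10.6% against a background of 12.7%; of all genes, 6.03% rose and 6.64% fell. Of these 14 members, 12 did not pass in shCBX8-1, but a difference between the hairpins was called for 2 of the 12, LINC01460 and LINC00265. When only the libraries compared were fitted, 0 members passed by edgeR in shCBX8-2 (39 at an unadjusted p under 0.05), and 5.97% of all genes passed in that fit. With DESeq2 in the fit of all libraries 24 members and 16.0% of all genes passed.

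LINC02688 (chromosome 11, 1049880 to 1055764) was the third member that rose in shCBX8-2. It stood at 0.302 and 0.568 CPM in control, at 0.981 and 0.758 under shCBX8-1, and at 2.49 and 1.70 under shCBX8-2, and the 3 groups did not overlap. The log2 fold change was 2.26 ± 0.46 in shCBX8-2 (SE, edgeR adjusted p = 0.0245) and 1.00 ± 0.45 in shCBX8-1 (adjusted p = 0.328). It reached 1 CPM in the shCBX8-2 group alone, so it became a member through the group in which it was high. By RefSeq spans the coding gene LOC124902605 overlaps all 5885 bases of LINC02688, so counts may be divided between them, which was not tested. LINC02688 lies 19.1 kb from MUC2, which codes for a secreted gel-forming mucin of gut goblet cells. MUC2 was looked up after the values of LINC02688 were seen. MUC2 stood at 0.332 and 0.359 CPM in control, at 0.644 and 0.591 under shCBX8-1, and at 1.23 and 1.89 under shCBX8-2, and rose in shCBX8-2 (log2 2.17 ± 0.44, SE, adjusted p = 0.0246). The mucin genes MUC6 and MUC5AC were looked up with it. MUC6 was at -0.48 ± 0.83 log2 in shCBX8-1 (SE, edgeR adjusted p = 0.849) and 0.84 ± 0.82 in shCBX8-2 (adjusted p = 0.54). MUC5AC fell by 1.28 ± 0.08 log2 in shCBX8-1 (SE, adjusted p = 0.00331) and rose by 2.38 ± 0.08 in shCBX8-2 (adjusted p = 0.000184). The strand of LINC02688 was not resolved here, and 2 of its 3 entries are repeated accessions.

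Among the members called in shCBX8-2, those with the lowest fold changes were scarce. LINC02212 (-2.04 ± 0.62, SE, edgeR adjusted p = 0.0802) and LINC02280 (-1.41 ± 0.43, SE, adjusted p = 0.0798), named after their values were seen, had values as low but did not pass. LINC02593 (chromosome 1, 916818 to 919692) stood at 2.55 and 3.796 CPM in control, at 1.98 and 1.61 under shCBX8-1, and at 0.709 and 1.19 under shCBX8-2, and the groups did not overlap. Its log2 fold change was -1.74 ± 0.37 in shCBX8-2 (SE, edgeR adjusted p = 0.0276) and -0.82 ± 0.36 in shCBX8-1 (adjusted p = 0.304). LINC01460 (chromosome 2, 27705786 to 27715732) stood at 2.22 and 2.42 CPM in control, at 2.68 and 3.12 under shCBX8-1, and at 0.930 and 0.525 under shCBX8-2, and fell by 1.67 ± 0.34 log2 in shCBX8-2 (SE, adjusted p = 0.0249). LINC00623 (chromosome 1, 120912238 to 120955811) stood at 2.37 and 2.17 CPM in control, at 1.33 and 2.12 under shCBX8-1, and at 0.930 and 0.858 under shCBX8-2, and fell by 1.34 ± 0.33 log2 (SE, adjusted p = 0.0444), a call that ended with replicate number as a block (0.0723) and without a filter on low counts (0.0527). These 3 lay lowest in shCBX8-2 in both libraries.

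LINC02615 (chromosome 4, 128428016 to 128519398) stood at 5.23 and 3.72 CPM in control, at 2.76 and 2.501 under shCBX8-1, and at 2.30 and 1.32 under shCBX8-2, with -1.30 ± 0.33 in shCBX8-2 (SE, edgeR adjusted p = 0.0458, and 0.0603 without a filter on low counts). LINC01504 (chromosome 9, 72305436 to 72343210) stood at 3.78 and 3.54 CPM in control, at 3.16 and 3.61 under shCBX8-1, and at 1.59 and 2.00 under shCBX8-2, and fell by 1.03 ± 0.23 log2 (SE, adjusted p = 0.0322, and 0.0513 with the block). The first was lower than control in all 4 knockdown libraries, whereas the second overlapped with control in shCBX8-1.

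LINC00205 (chromosome 21, 45288052 to 45297354), studied in liver tumours, stood at 22.1 and 22.7 CPM in control, at 21.5 and 19.3 under shCBX8-1, and at 14.1 and 15.7 under shCBX8-2, with -0.59 ± 0.12 in shCBX8-2 (SE, edgeR adjusted p = 0.0269). LINC00265 (chromosome 7, 39733568 to 39794623) stood at 7.07 and 8.29 CPM in control, at 8.11 and 6.78 under shCBX8-1, and at 4.46 and 3.82 under shCBX8-2, and fell by 0.89 ± 0.19 log2 (SE, adjusted p = 0.0258). The remaining calls in shCBX8-2 were LINC02604 and LINC01521, described above, LINC01270 (-0.73 ± 0.18, SE, adjusted p = 0.0433, 0.0729 with the block and 0.0537 without a filter on low counts) and LINC01123 (-0.55 ± 0.12, SE, adjusted p = 0.0291). The last pair lies outside the rule for named genes and is given after its values were seen. GENCODE places 962 of the 2436 exonic bases of LINC01123 within the pseudogene ZBTB45P1, and its call ended without repeated accessions (adjusted p = 0.0519).

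The comparison of the hairpins with each other asked whether the groups differed. Against shCBX8-1, 6 members were lower in shCBX8-2, or 4.55% against 5.77% of all genes that were lower, 4.05% that were higher and 9.82% in either direction. By edgeR 0 members were higher, against 12 higher at an unadjusted p under 0.05 and 4 higher with DESeq2. A fit of only the 4 libraries compared called 0 members in either direction by edgeR, 31 at an unadjusted p under 0.05, and 3.85% of all genes. LINC01460 differed by -1.99 ± 0.34 log2 (SE, edgeR adjusted p = 0.0179) and LINC00265 by -0.85 ± 0.19 (adjusted p = 0.0366, and 0.0607 with the block). LINC02582, up in both, differed by -0.45 ± 0.11 (adjusted p = 0.0493), a call that ended with DESeq2 size factors (0.051), without a filter on low counts (0.07), with the block (0.0731) and without the repeated accessions of other genes (0.0561).

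The other 3 did not pass against control in either hairpin and lay on opposite sides of it. LINC00472 (chromosome 6, 71407864 to 71420745), described as lower in breast tumours than in normal tissue, stood at 4.81 and 3.48 CPM in control, at 6.55 and 6.53 under shCBX8-1, and at 2.03 and 3.005 under shCBX8-2. Its log2 difference between the hairpins was -1.38 ± 0.26 (SE, edgeR adjusted p = 0.0246). LINC01186 (chromosome X, 46325924 to 46327674) stood at 2.01 and 1.64 CPM in control, at 2.499 and 2.32 under shCBX8-1, and at 0.977 and 0.811 under shCBX8-2, a difference of -1.43 ± 0.29 (SE, adjusted p = 0.0294). LINC00513 (chromosome 7, 130913464 to 130921946) stood at 5.07 and 4.96 CPM in control, at 5.96 and 7.70 under shCBX8-1, and at 3.78 and 4.04 under shCBX8-2, a difference of -0.80 ± 0.19 (SE, adjusted p = 0.0451, 0.0668 with the block and 0.0574 without a filter on low counts). In all 3 the shCBX8-1 libraries lay above both controls and the shCBX8-2 libraries below. The mean over both hairpins was near control for LINC00472 (-0.03 log2) and LINC00513 (0.04) and lower for LINC01186 (-0.31), and it passed for none of them.

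**Figure D4:**
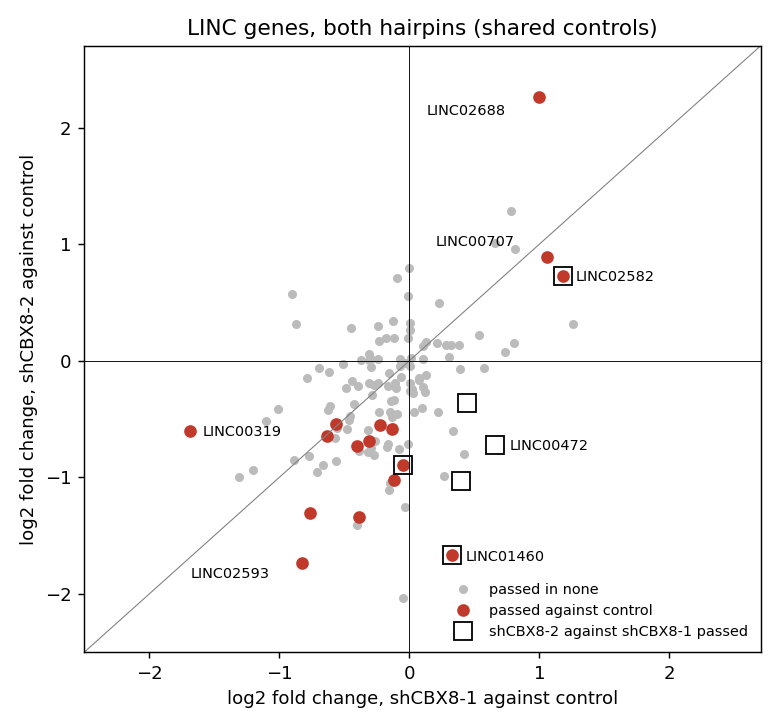
Log2 fold change of the 132 LINC genes in shCBX8-1 (x axis) and shCBX8-2 (y axis), both against the same 2 control libraries, with the diagonal of equal values. Red points passed against control, in a hairpin or in their mean, and squares mark the 6 members that differed between the hairpins, all of which lie below the diagonal.

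A list of 20 LINC genes known from studies of tumours held 14 members. Of these, LINC00707 rose and LINC00174 fell in knockdown, and 12 did not pass, with log2 differences from -0.49 for LINC00963 to 0.26 for LINC01116. Among all genes tested 3.31% rose and 3.48% fell, and 2 calls are too few to describe the list as a whole. LINC00963, studied in prostate tumours, stood at 16.8 and 19.99 CPM in control, at 13.2 and 13.4 under shCBX8-1, and at 14.5 and 11.4 under shCBX8-2, all 4 knockdown libraries below both controls (edgeR adjusted p = 0.0875). LINC01234, studied in gastric and lung tumours, stood at 21.95 and 21.98 CPM in control, at 23.1 and 23.2 under shCBX8-1, and at 21.3 and 18.3 under shCBX8-2. LINC00511, the neighbour of LINC00673 on chromosome 17 at 5.24 kb, stood at 1.37 to 2.62 CPM. LINC00467, LINC00662, LINC00667, LINC00941 and LINC01138 had log2 differences of -0.06, -0.34, -0.36, -0.11 and -0.42. The 6 that did not reach the threshold were LINC00460, LINC00958, LINC00342, LINC00261, LINC00312 and LINC00839, with means of 0.0253 to 0.699 CPM.

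At the level threshold the last members inside were LINC01193, LINC00479 and LINC01619, with means of 1.04, 1.04 and 1.02 CPM of library totals, and the first outside were LINC01484, LINC02762 and LINC02981 with 0.997, 0.996 and 0.986 CPM. In all, 108 members reached 1 CPM in each of the 3 groups, 20 in 2 groups and 4 in 1 group, 2 of these in control and 2 in shCBX8-2. Another 18 LINC genes reached 1 CPM in some group without being members.

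The position of the members relative to protein-coding genes was then described. By RefSeq spans, 70 had the nearest coding gene within 50 kb, 39 had none, 10, 6 and 1 overlapped the span of a coding gene on the opposite, the same or an unresolved strand, and 6 that overlapped none started within 2 kb of the start of a coding gene on the opposite strand, an arrangement called head to head. Another 3 members, LINC02603, LINC01547 and LINC01560, also start within 2 kb of an opposite-strand start (of ZNF169, SLX9 and ZNF41) and were counted as overlapping. Of all LINC genes listed, 52.9% had no coding gene within 50 kb, against 29.5% of the members. The median log2 fold change in knockdown was -0.30 for head-to-head members, -0.30 for those within 50 kb, -0.29 for the 6 that overlap on the same strand, -0.11 for the 10 that overlap on the opposite strand and -0.10 for those with no coding gene near. Of the 121 members with exons in GENCODE, 24 share exon bases with a protein-coding gene or a pseudogene, and counts at such genes may be divided between the partners. The counting is not stated to use strand, so reads of members on the opposite strand of a coding gene cannot be told from those of the partner.

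In the head-to-head pairs the partners did not move as the LINC gene did in each case. LINC00205 starts 157 bases from POFUT2, which codes for a fucosyltransferase of the secretory pathway, and 256 of the 300 bases of its window shown above are also in the POFUT2 window on the other strand. POFUT2 stood at 26.4 and 27.9 CPM in control, at 23.6 and 24.4 under shCBX8-1, and at 21.96 and 20.8 under shCBX8-2, a log2 difference in shCBX8-2 of -0.34 ± 0.11 (SE, edgeR adjusted p = 0.0858). LINC01521 starts 413 bases from PATZ1, a zinc finger transcription factor gene. PATZ1 stood at 54.2 and 55.4 CPM in control, at 54.5 and 56.6 under shCBX8-1, and at 66.2 and 66.1 under shCBX8-2, or 0.27 ± 0.08 log2 in shCBX8-2 (SE, adjusted p = 0.0703). PATZ1 was thus highest in the group in which LINC01521 was lowest, and POFUT2 lay on the same side of control as LINC00205. LINC00857, studied in lung tumours, had 19.8 to 27.0 CPM and did not pass (0.23 ± 0.10, adjusted p = 0.244), while its partner ANXA11, an annexin gene, rose (0.36 ± 0.07, SE, adjusted p = 0.0284).

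Over the 75 members with a tested coding neighbour, 4 members and 12 neighbours passed in knockdown, where 6.79% of all genes tested passed. Whether the neighbours differ from that background was not tested. By edgeR both partners passed in 0 pairs, both had an unadjusted p under 0.05 in 5 and both passed in 1 with DESeq2. Their log2 fold changes had a Spearman correlation of 0.19 across the 75 pairs, which share their libraries, and the signs matched in 44. The pair with LINC02593 and SAMD11, 4.23 kb apart, had the lowest sum of both log2 fold changes. SAMD11, a gene with a SAM domain, stood at 15.6 and 22.04 CPM in control, at 8.14 and 6.52 under shCBX8-1, and at 11.4 and 6.995 under shCBX8-2, and fell by 1.20 ± 0.23 log2 in knockdown (SE, edgeR adjusted p = 0.0305). LINC02593 did not pass in knockdown (-1.28 ± 0.30, SE, adjusted p = 0.0533). In shCBX8-2, where LINC02593 passed, SAMD11 did not (-1.03 ± 0.28, SE, adjusted p = 0.056). FBLN1, which codes for the matrix protein fibulin 1, rose (1.12 ± 0.10, SE, adjusted p = 0.00584) beside LINC01589 at 3.30 kb, whose levels overlapped between the groups and whose log2 difference was 0.31 ± 0.32 (SE, adjusted p = 0.623). FBLN1 was at 0.34 ± 0.11 in shCBX8-1 (SE, edgeR adjusted p = 0.174) and 1.91 ± 0.11 in shCBX8-2 (adjusted p = 0.000903), a called difference of 1.56 ± 0.11 (adjusted p = 0.00122). LINC01589 was at -0.10 ± 0.36 and 0.71 ± 0.36 in the same order (adjusted p = 0.939 and 0.245).

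**Figure D5:**
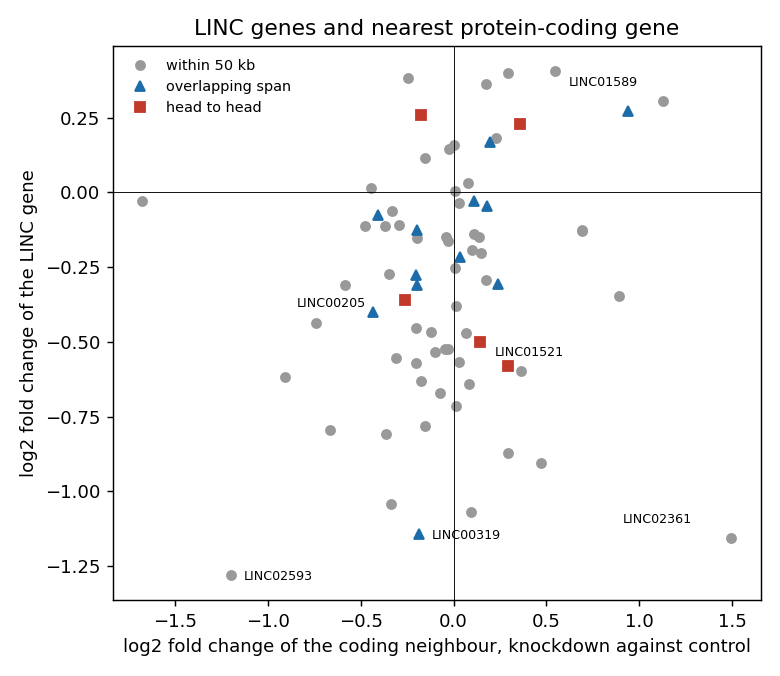
Log2 fold change in knockdown against control of 75 LINC genes (y axis) and of their nearest tested protein-coding gene (x axis), by position. Points spread over all 4 quadrants, LINC02593 and its neighbour SAMD11 lie together at the lower left, and the Spearman correlation is 0.19.

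Long non-coding RNAs that carry other names were set beside the members. Of 50 listed, 43 were tested, with a median log2 fold change in knockdown of 0.04, against -0.21 for the LINC members. The lists also differ in level: the 43 include abundant RNAs such as SNHG29, at 318 to 419 CPM. The members had a median of 3.26 CPM, and the part of level in the contrast was not tested. NEAT1, the scaffold RNA of nuclear paraspeckles, rose from 363 and 385 CPM in control to 483 and 464 under shCBX8-1, and 470 and 556 under shCBX8-2 (0.40 ± 0.08, SE, edgeR adjusted p = 0.0364). TMPO-AS1 rose as well (0.70 ± 0.13, SE, adjusted p = 0.0282). LINC-PINT, a p53-induced RNA whose symbol has no number, fell (-0.54 ± 0.12, SE, adjusted p = 0.0433), and SNHG29, a host of small nucleolar RNAs, fell (-0.26 ± 0.06, SE, adjusted p = 0.0487). The other 39 did not pass in knockdown, and the background was 6.79% of all genes. LINC-PINT was at -0.14 ± 0.14 in shCBX8-1 (SE, edgeR adjusted p = 0.695) and -0.94 ± 0.14 in shCBX8-2 (adjusted p = 0.00883), and the difference of -0.81 ± 0.14 between them was called (adjusted p = 0.0178). In shCBX8-2 against control 4 of the 43 rose and 2 fell, beside 12.7% of all genes called. Between the hairpins SNHG1 was higher in shCBX8-2 (0.37, adjusted p = 0.0308). MIR31HG, the host RNA of miR-31, was also called higher in shCBX8-2 than in shCBX8-1 (1.19 ± 0.14, SE, adjusted p = 0.00513), with 7.36 and 7.67 CPM in control, at 5.86 and 6.16 under shCBX8-1, and at 14.2 and 13.2 under shCBX8-2.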

How the data were processed

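RNA sequencing of 6 A549 libraries, 2 per group, was used as deposited. The values deposited by the authors are expected counts, estimated for each RefSeq transcript and written as whole numbers with no scaling. HISAT2 2.2.1, StringTie 2.2.1, DESeq2 1.34.0 and the build hg38 are named in the submitters' processing notes without their roles. The annotation, the counting step and the use of strand are not named there or in the labels.

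Copy suffixes were dropped and counts summed per gene. Of 84787 transcripts, 83963 were matched by RefSeq (GRCh38.p14), 357 by GENCODE release 29 and 467 not at all. In edgeR 4.0.16 (R 4.3.3) filterByExpr (minimum count 10, total 15) kept 17115 genes, among them all 132 members. TMM scaling and a quasi-likelihood fit of 3 groups (3 residual degrees of freedom, 0.0369 common dispersion) gave 4 contrasts, with two-sided p-values, Benjamini-Hochberg adjustment across the 17115 genes and a threshold of 0.05. Standard errors came from the F statistic. DESeq2 1.42.0 was an alternative. Library totals were 64197784 to 67169537.

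Members named are the 8 most abundant, those called (the 8 highest and 8 lowest in knockdown with the same sign in both hairpins, and the 5 highest and lowest in each other contrast), those at the threshold and those of the list of studied LINC genes. Members and lists were chosen with earlier results of these data known. Coordinates are those of GRCh38.p14.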

Additional observations from a re-analysis of the deposited data

Results flagged for a closer look

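The response to the hairpins differed for 6 LINC genes, by the test of shCBX8-2 minus shCBX8-1 (edgeR, adjusted p under 0.05). The difference on the log2 scale was -1.99 for LINC01460, -1.43 for LINC01186, -1.38 for LINC00472, -0.85 for LINC00265, -0.80 for LINC00513 and -0.45 for LINC02582. In each of the 6 genes both shCBX8-2 libraries lay below both shCBX8-1 libraries. This order is no separate support, because the 6 were chosen by that test on the same libraries. They are 4.55% of the members, against 9.82% of all genes called in either direction. Groups of 2 libraries are too small for a check of single outlying samples.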

How the results depend on the processing

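The numbers of members called moved with the libraries and the test. All 29 calls kept their direction in all 348 alternative values. That is no separate support, because the alternatives reuse the libraries by which the calls were chosen. Leaving out 1 library gave 0 to 23 members in knockdown, 0 to 14 in shCBX8-1, 0 to 26 in shCBX8-2 and 0 to 23 between the hairpins, against 6, 3, 14 and 6 with all libraries. The counts were 0 by edgeR without either control or either shCBX8-1 library, where 11 to 40 members had an unadjusted p under 0.05. Leaving out either shCBX8-2 library raised the counts in all 4 comparisons. Over all genes the share called rose there too, and it fell without a control or a shCBX8-1 library. The cause was not tested. The DESeq2 Wald test called 16, 10, 24 and 14 members, beside 10.9, 6.60, 16.0 and 13.3% of all genes. Fits of only the libraries compared called 14 in shCBX8-1, 0 in shCBX8-2 and 0 between the hairpins (39 and 31 at an unadjusted p under 0.05). These fits called 14.45, 5.97 and 3.85% of all genes. The 4 knockdown libraries as 1 group gave 0, where 0.158% of all genes passed. Without the filter on low counts 1 member was called in shCBX8-1, beside 1.49% of all genes. With replicate number as a block, 2 members were called in knockdown, 1 in shCBX8-1, 10 in shCBX8-2 and 4 between the hairpins. Over all genes the block gave 4.07, 1.01, 9.84 and 6.32% in the same order. The differences between replicates 1 and 2 correlated at -0.0061 (control and shCBX8-1), -0.015 (control and shCBX8-2) and 0.025 (shCBX8-1 and shCBX8-2) across genes. These values cannot decide whether libraries of the same number were paired, since other differences between libraries could hide a shared part. DESeq2 size factors, other level thresholds, all tested LINC genes and, added after the data were seen, members that share no exon bases with coding genes or pseudogenes kept every count within 1.5 times. Repeated accessions left out gave 4, 2, 13 and 5, beside 6.83, 2.09, 12.6 and 9.65% of all genes.

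Signs of uncalled log2 differences in knockdown turned when 1 library was left out. LINC00467 ran from -0.15 to 0.038 (0.022 without shCBX8-1 replicate 1), LINC00472 from -0.24 to 0.22 (0.11 without shCBX8-2 replicate 1, and 0.13 with 1 knockdown group), LINC00673 from -0.21 to 0.024, LINC01234 from -0.082 to 0.016 and LINC01619 from -0.54 to 0.049. Depth limits the 42 members under 2 CPM most, and the lowest count was 11. Differences between the shCBX8-2 libraries followed GC content (Spearman 0.28 over 121 members, 0.49 over 16560 genes); their part in the results was not tested.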
